A study of Homo sapiens with 2 samples.

Results

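Of 10 long noncoding RNAs known from liver cancer, 7 were expressed in PLC cells, and in the values as deposited none of these 7 differed by 2-fold between cells that overexpressed PRSS35 and cells with the empty vector, where 5.21% of all expressed genes did. H19 stood at 43.4 FPKM in the empty vector cells and 61.5 FPKM in the PRSS35 cells, the largest difference of the 7, and it was past 2-fold only when each value was divided by its library's total over all loci. GAS5 and SNHG1, which both host small nucleolar RNAs (snoRNAs) in their introns, were each 1.30 times as high in the empty vector cells in the values as deposited, an order that turned under the same division. DANCR was the most abundant of the 10 in both libraries, at 323.1 and 295.1 FPKM, while HOTAIR was listed at 0 in both and HULC and MEG3 were too low for a difference to be detected.

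The 10 RNAs, MALAT1, NEAT1, H19, HULC, MEG3, GAS5, TUG1, HOTAIR, DANCR and SNHG1, were given as a list and were found by name among 26257 gene names present in both tables. FPKM is the number of sequenced fragments scaled by the length of the transcript and by how many fragments its library had mapped. A gene was called expressed at a mean of at least 1 FPKM over the 2 libraries. By this measure 7 of the 10 were expressed, among 11118 expressed names in all, and HULC, MEG3 and HOTAIR lay below.

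The study compared 2 stable lines of PLC, a human liver cancer cell line. The EV cells had been infected with a lentivirus made from the empty pCDH vector (genotype labelled WT), and the PRSS35 cells with the same vector carrying the human PRSS35 coding sequence (genotype labelled PRSS35 over-expression). Both were selected with puromycin, neither received a further treatment, and whether a line came from 1 clone is not given in the sources used here. Each condition had 1 library, so no difference below has a replicate check, no p-value is given, and n is 1 for each value. The tables hold no read counts, and the depth of each library is not stated. The interval beside each FPKM value is the one the authors' Cufflinks run wrote, 2 SD to either side, and it holds the error of counting and of assigning fragments in that library, with no variation between cultures. The fragments implied by this interval are given as a measure of precision.

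Long noncoding RNAs are transcripts that are not known to be read into a long protein. Some act where they are made, others in the cytoplasm, and several are mainly carriers of smaller RNAs cut from their introns or exons. MALAT1 and NEAT1 are abundant nuclear RNAs of many tissues. MALAT1 gathers at nuclear speckles, and NEAT1 is the scaffold of paraspeckles. H19 and MEG3 are imprinted and are high in the fetus. HULC was named for its high level in hepatocellular carcinoma. GAS5, SNHG1 and DANCR are snoRNA host genes. HOTAIR, made from the HOXC cluster, and TUG1 have both been described as partners of the Polycomb repressive complex PRC2.

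The sequences that bear on how these RNAs were measured are given first. In the tables, 5 of the 10 RNAs shared their row with other gene names, and these were small RNAs cut from the same transcript. For GAS5 and SNHG1, the snoRNA names in the row differed between the libraries. The row of GAS5 was joined with SNORD80 and SNORD81 in EV and with SNORD47 and SNORD76 in PRSS35, and the row of SNHG1 with SNORD29 and SNORD31 in EV and with SNORD22 and SNORD25 in PRSS35. Of the 10 snoRNAs of GAS5, 8 had a row of their own at 0 in each library, as had 6 of the 8 of SNHG1, and SNORA26 in DANCR was at 0 in both. No snoRNA was joined to its host in both libraries. The value of a joined snoRNA was therefore the value of its host, and no level of a snoRNA is reported. The 4 joined snoRNAs of GAS5 and a pair from SNHG1 were read from GRCh37, the assembly also called hg19, at the positions in the tables, on the minus strand. They are box C/D snoRNAs, which guide the methylation of ribosomal RNA. Capitals mark the first TGATGA, the letters of the C box, and the last CTGA, the letters of the D box, where found. The SNORD81 stretch, 43 bases, is the shortest shown. Whether it holds the whole snoRNA and its final D box was not checked. Those of GAS5 lie at chr1:173833971-173834041 (SNORD80), chr1:173833313-173833355 (SNORD81), chr1:173833507-173833583 (SNORD47) and chr1:173835773-173835853 (SNORD76). Those of SNHG1 lie at chr11:62621376-62621440 (SNORD29) and chr11:62623037-62623103 (SNORD25).
SNORD80: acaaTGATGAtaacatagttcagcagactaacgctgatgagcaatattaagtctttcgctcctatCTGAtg
SNORD81: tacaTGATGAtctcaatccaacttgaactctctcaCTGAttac
SNORD47: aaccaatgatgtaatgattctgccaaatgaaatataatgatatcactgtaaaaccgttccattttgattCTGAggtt
SNORD76: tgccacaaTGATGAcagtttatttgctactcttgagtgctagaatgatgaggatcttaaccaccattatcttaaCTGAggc
SNORD29: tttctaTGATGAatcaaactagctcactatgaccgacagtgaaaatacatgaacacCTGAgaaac
SNORD25: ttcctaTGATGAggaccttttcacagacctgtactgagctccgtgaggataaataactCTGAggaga

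H19 shared its row with MIR675, MEG3 with MIR770 and NEAT1 with MIR612 in both libraries. The first exon of H19 is the source of miR-675, so its mature forms, taken from RefSeq on GRCh38.p14, are shown here with that of miR-770. Capitals mark the seed, bases 2 to 8, by which a microRNA finds its targets, and no seed was shared among the 3. The row gives the level of the long transcript only, since RNA-seq libraries of this kind do not measure mature microRNAs.
hsa-miR-675-5p: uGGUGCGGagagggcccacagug
hsa-miR-675-3p: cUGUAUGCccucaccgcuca
hsa-miR-770-5p: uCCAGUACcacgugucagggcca

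MALAT1 is known to end without a poly(A) tail. Its end is made by RNase P, which cuts in front of a small tRNA-like RNA, and is then held in a triple helix in which T-rich runs (U in the RNA) fold back onto an A-rich tract. The genome encodes these parts, and they are shown from GRCh37 at chr11:65273468-65273649 on the plus strand. Capitals mark runs of at least 5 T before the tract and the A-rich tract itself, 19 bases long, at chr11:65273569-65273587. The tRNA-like RNA follows it in lower case. The sources used here do not say whether RNA with a poly(A) tail was selected for these libraries.
MALAT1 end: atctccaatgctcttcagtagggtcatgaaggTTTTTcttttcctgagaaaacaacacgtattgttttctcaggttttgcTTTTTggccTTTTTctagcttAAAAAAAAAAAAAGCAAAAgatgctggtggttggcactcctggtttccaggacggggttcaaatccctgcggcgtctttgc

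The labels were checked first. PRSS35 stood at 0.643 FPKM (interval 0.445 to 0.841) in EV and 1836 FPKM (interval 1759 to 1912) in PRSS35. Of 11 liver genes, 10 had at least 1 FPKM in both libraries, although ALB, the gene of serum albumin, reached only 4.05 and 5.21 FPKM. The summed level of these 11 was 3462 FPKM in EV and 5217 in PRSS35, with SERPINA1, the gene of alpha-1-antitrypsin, at 2528 and 4239. Of 6 markers of leukocytes, endothelium and fibroblasts, only CD68, a lysosomal protein gene also read in other cells, reached 1 FPKM in both, and PTPRC and COL3A1 were at 0 in both. Their summed level was 298.0 FPKM in EV and 278.7 in PRSS35, and the part of either marker list in the results below was not tested.

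**Figure D1:**
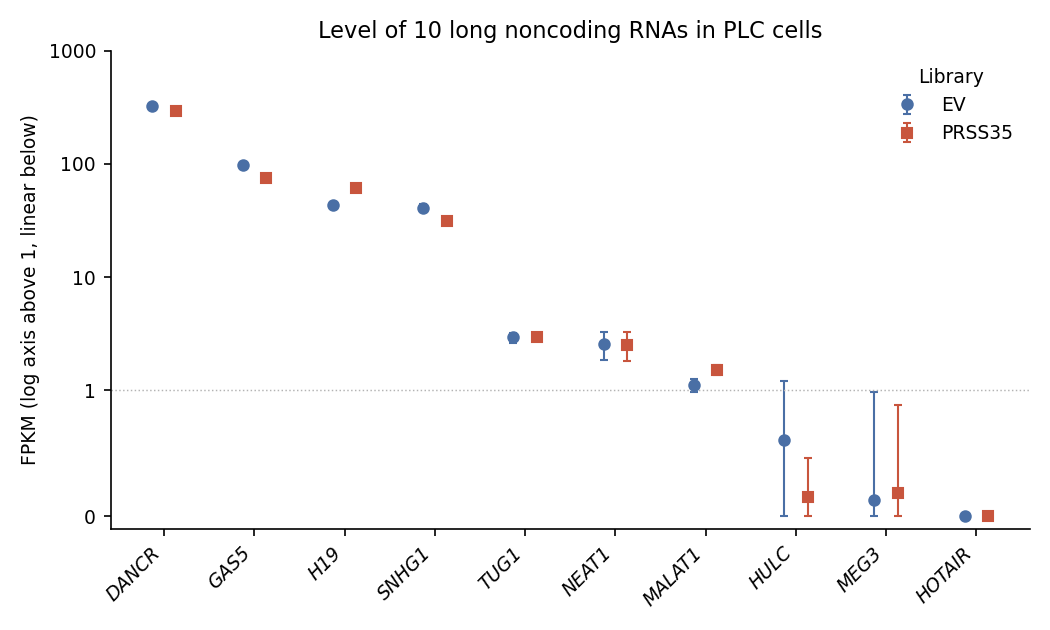
FPKM of the 10 long noncoding RNAs in the EV library (circles) and the PRSS35 library (squares), with bars for the Cufflinks interval of 2 SD to either side, on an axis that is logarithmic above 1 and linear below. DANCR, GAS5, H19 and SNHG1 lie above 30, TUG1, NEAT1 and MALAT1 between 1 and 3, and HULC, MEG3 and HOTAIR below 1.

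The levels as measured fell into a high, a low and a near-absent group. FPKM is per length, but it does not correct for how well each RNA entered the library. Whether poly(A) RNA was selected is not stated, and MALAT1 ends without a poly(A) tail. Some rows were also assembled or joined with other names and others were annotated. The part of either in the order below was not tested. In EV, DANCR was 3.31 times as high as GAS5, and GAS5 was 2.25 times as high as H19. H19 and SNHG1 came next with overlapping intervals, and SNHG1 was 13.9 times as high as TUG1. TUG1 and NEAT1 overlapped, and NEAT1 was 2.29 times as high as MALAT1. The order in PRSS35 was the same down to MALAT1. The intervals of H19 and SNHG1 were apart there, with H19 1.95 times as high as SNHG1, and H19 was closer to GAS5, which was 1.22 times as high as H19. HULC and MEG3 came last, with overlapping intervals in both libraries, and in EV the interval of MALAT1 also overlapped that of HULC. DANCR made up 63.1% of the summed FPKM of the 10 in EV and 62.7% in PRSS35, the sums being 512.4 and 470.7 FPKM.

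Differences are log2 ratios of PRSS35 over EV after 1 FPKM was added to each value, on which a value of 0 means equal levels, and this scale understates the difference of low genes. Among all expressed names, 5.21% differed by 2-fold or more, 303 higher and 276 lower in PRSS35. None of the 7 expressed long noncoding RNAs did, a count read beside that background, and none passed 1.5-fold. The log2 difference of the 7 ran from -0.37 to 0.49 with a median of -0.01, against a median of 0.06 over all expressed names. The Cufflinks intervals of the 2 libraries did not overlap for 4 of the 7. H19 and MALAT1 were the 2 higher in PRSS35, beside 25.2% of all expressed names, and GAS5 and SNHG1 the 2 lower as deposited, beside 15.5%. Separate intervals were thus common among genes at large. All loci together summed to 2469030 FPKM in EV but 1508530 FPKM in PRSS35. Dividing the values by these sums lifted the median log2 difference of all expressed names from 0.06 to 0.68 and put all 7 RNAs above 0, so differences under this scaling are also given relative to the median gene. Over named loci alone the sums were 856880 and 831520.

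**Figure D2:**
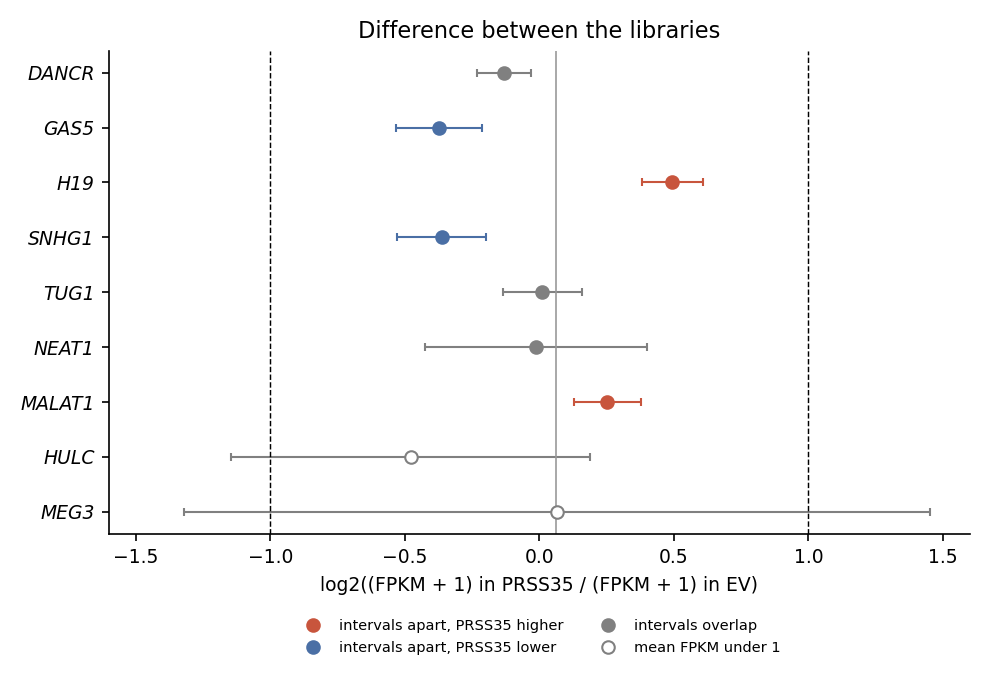
Log2 difference between PRSS35 and EV, with 1 FPKM added, for the 9 long noncoding RNAs above 0, with bars of 2 SD from the Cufflinks intervals. Dashed lines mark 2-fold, the grey line marks the median of all expressed names, 0.06, and open circles mark RNAs with a mean under 1 FPKM. No expressed RNA reaches a dashed line, and H19 lies farthest from 0, at 0.49. GAS5 and SNHG1 lie below 0 as deposited and above 0 with the values divided by the sum over all loci.

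Of the snoRNA hosts, DANCR (differentiation antagonizing noncoding RNA, which hosts SNORA26 and holds progenitor cells undifferentiated) had the highest level. Its locus in the tables was chr4:53578621-53580305 on hg19, on the plus strand. It stood at 323.1 FPKM (interval 307.3 to 338.9) in EV and 295.1 FPKM (interval 280.5 to 309.8) in PRSS35, with 1669 and 1624 implied fragments. The intervals overlapped. DANCR ranked 544 of 11118 expressed names in EV and 564 in PRSS35, near the top of the list in both. Its log2 difference was -0.13, turning to 0.58 with the values divided by the sum over all loci, where it lay 0.10 below the median gene.

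GAS5 (growth arrest specific 5) accumulates when growth stops and translation is low. Its RNA is broken down by nonsense-mediated decay when ribosomes read its short open reading frame. The locus was chr1:173833039-173837125, on the minus strand, and was the same in both libraries. GAS5 stood at 97.7 FPKM (interval 90.2 to 105.1) in EV and 75.1 FPKM (interval 68.9 to 81.4) in PRSS35, with 695 and 585 implied fragments. The intervals did not overlap, and the level in PRSS35 was 0.769 times that in EV. The log2 difference was -0.37 as deposited and 0.33 with the values divided by the sum over all loci, where GAS5 still lay 0.35 below the median gene. The library kit does not mark strand, and GENCODE places GAS5-AS1 on the opposite strand, so reads of the pair cannot be told apart where they overlap.

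SNHG1 (small nucleolar RNA host gene 1) is another transcript whose introns carry box C/D snoRNAs. The spliced RNA that remains has been described as promoting growth in liver cancer. It lay at chr11:62619460-62623360, on the minus strand. Its level was 40.9 FPKM (interval 37.6 to 44.2) in EV and 31.6 FPKM (interval 28.9 to 34.3) in PRSS35, with 606 and 542 implied fragments. As with GAS5, EV was the higher library and the intervals were apart, and PRSS35 stood at 0.772 times EV. The log2 difference was -0.36 as deposited and 0.33 with the values divided by the sum over all loci, again 0.35 below the median gene. SNHG1 ranked 2742 in EV and 3293 in PRSS35, and GAS5 ranked 1560 and 1886. For both hosts the names joined to the row differed between the libraries, as described above, and the part of this in their difference was not tested.

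The promoters of these 3 snoRNA hosts are shown as sequence only, and a part of them in any difference between the libraries was not tested. RefSeq held a promoter, 250 bases before to 50 after the start, for 7 of the 10 RNAs on GRCh38.p14, and none was used for NEAT1, HULC and HOTAIR. Both strands were searched for the CCAAT box (CCAAT or ATTGG), the site of factor NF-Y, and matches are in capitals. The promoter of DANCR held 5 CCAAT boxes, at chr4:52712144-52712443 on the plus strand, and 0.359% of 35116 promoters held at least that many. GAS5 held 3, at chr1:173868996-173869295 on the minus strand, a number reached by 3.26% of promoters. SNHG1 held none, at chr11:62855836-62856135 on the minus strand, where 34.6% of promoters held at least 1. Of GC boxes, DANCR held 3, a number reached by 15.8% of promoters, SNHG1 held 1 and GAS5 held none. A window of MALAT1, not shown, held 5 GC boxes, a number reached by 5.14%. The letters are a description of these windows and say nothing on binding. The windows are on GRCh38.p14 and the measured rows on hg19. Whether the GAS5 window lies at the start of the GAS5 row was not checked.
DANCR promoter: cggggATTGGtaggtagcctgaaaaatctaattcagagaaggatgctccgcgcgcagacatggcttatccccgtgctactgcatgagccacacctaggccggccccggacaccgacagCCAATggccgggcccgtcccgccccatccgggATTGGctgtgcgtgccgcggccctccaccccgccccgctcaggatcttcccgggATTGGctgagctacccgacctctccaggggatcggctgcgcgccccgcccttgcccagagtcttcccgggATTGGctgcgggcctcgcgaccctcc
GAS5 promoter: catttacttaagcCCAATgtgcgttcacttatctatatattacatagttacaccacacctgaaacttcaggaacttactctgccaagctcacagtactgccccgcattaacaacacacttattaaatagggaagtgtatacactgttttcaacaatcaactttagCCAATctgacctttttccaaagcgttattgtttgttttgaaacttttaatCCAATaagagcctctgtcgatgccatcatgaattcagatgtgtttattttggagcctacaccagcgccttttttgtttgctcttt
SNHG1 promoter: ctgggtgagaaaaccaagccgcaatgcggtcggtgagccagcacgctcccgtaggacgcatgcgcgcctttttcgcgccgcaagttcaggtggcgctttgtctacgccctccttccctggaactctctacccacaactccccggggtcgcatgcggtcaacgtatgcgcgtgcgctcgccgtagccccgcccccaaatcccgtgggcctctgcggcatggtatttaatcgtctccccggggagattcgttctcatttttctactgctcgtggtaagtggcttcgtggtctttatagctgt

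Of the imprinted RNAs, H19 is read from the maternal copy beside IGF2 and is a fetal liver transcript that often returns in liver cancer. Its locus was chr11:2016406-2022696, on the minus strand. H19 stood at 43.4 FPKM (interval 40.8 to 46.0) in EV and 61.5 FPKM (interval 58.2 to 64.8) in PRSS35, with 1127 and 1366 implied fragments. PRSS35 was the higher library with the intervals apart, at 1.42 times the level in EV. The log2 difference was 0.49, and it was 1.19 with the values divided by the sum over all loci, the only scaling tried under which any of the 7 passed 2-fold. Its rank among expressed names went from 2638 in EV to 2154 in PRSS35. IGF2, the neighbour that shares its imprinting control region, stood at 1.38 FPKM in EV and 1.26 in PRSS35 with overlapping intervals. The row of IGF2 was joined with other gene names in at least 1 library. MRPL23, the gene on the other side of H19, was at 515.6 FPKM in EV and 461.6 in PRSS35, lower with the intervals apart.

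MEG3 (maternally expressed 3), which has been described as a growth suppressor that is low in many liver cancers, was near absent. At chr14:101292445-101327360, on the plus strand, it had 0.132 FPKM (interval 0 to 0.991) in EV and 0.185 FPKM (interval 0 to 0.886) in PRSS35. Both intervals reached 0 and they overlapped widely, so a difference was not detectable in the MEG3 row. The implied fragments were 0.095 in EV and 0.279 in PRSS35, so these bounds do not stand for whole fragments counted. An unnamed locus inside MEG3 had 1.82 FPKM in EV and was not listed in PRSS35. Adding it to the row brought MEG3 past the filter on low values and turned its log2 difference from 0.07 to -1.32, past 2-fold, on 11 implied fragments. DLK1 and MEG8, from the same imprinted region, were listed at 0 in both libraries.

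Of the nuclear RNAs, MALAT1 had the lowest level of the 7 that were expressed. Its row covered chr11:65265233-65273983, on the plus strand, and was 8.75 kb long. MALAT1 stood at 1.12 FPKM (interval 0.991 to 1.25) in EV and 1.53 FPKM (interval 1.38 to 1.68) in PRSS35, with 294.7 and 408.0 implied fragments. PRSS35 was the higher library with the intervals apart. The ratio of the levels was 1.36 (interval 1.17 to 1.59), a log2 ratio of 0.45, which the added 1 FPKM reduced to a log2 difference of 0.25. With the values divided by the sum over all loci the log2 difference was 0.66, and MALAT1 lay 0.01 below the median gene. MALAT1 ranked 10612 of 11118 in EV and 10187 in PRSS35, near the bottom of the expressed names. The part of library preparation in this low rank was not tested. GENCODE places TALAM1, its antisense partner, on the opposite strand, and reads of the pair cannot be told apart here.

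NEAT1 lay at chr11:65190269-65213009, on the plus strand, in a row that covered the long form. It stood at 2.57 FPKM (interval 1.85 to 3.29) in EV and 2.54 FPKM (interval 1.83 to 3.26) in PRSS35, with 51.0 and 50.3 implied fragments. The levels were nearly equal and the intervals overlapped almost fully. The log2 difference was -0.01, with 2 SD from -0.43 to 0.40, and it was 0.50 with the values divided by the sum over all loci. NEAT1 had the widest interval of the 7, and a moderate difference in either direction lay within it.

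TUG1 (taurine upregulated 1) lay at chr22:31365197-31375380, on the plus strand, and GENCODE v44lift37 lists it as protein coding for a conserved reading frame. It stood at 2.94 FPKM (interval 2.64 to 3.24) in EV and 2.97 FPKM (interval 2.71 to 3.24) in PRSS35, with 382 and 507 implied fragments. The intervals overlapped, and the log2 difference was 0.01 with 2 SD from -0.13 to 0.16. It was 0.55 with the values divided by the sum over all loci, where TUG1 lay 0.13 below the median gene. Adding an unnamed locus inside TUG1, listed in PRSS35 only, brought it to 0.20. HOTAIR, at chr12:54356092-54368740 on the minus strand, was listed at 0 in both libraries, and no fold is given. The HOXC genes around it were not all silent. HOXC11, which overlaps HOTAIR on the opposite strand, was listed at 0 in both, while HOXC10 stood at 17.2 FPKM in EV and 25.3 in PRSS35, a log2 difference of 0.53 with the intervals apart.

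HULC (highly up-regulated in liver cancer) lay at chr6:8652442-8654080, on the plus strand. It stood at 0.608 FPKM (interval 0 to 1.22) in EV and 0.154 FPKM (interval 0 to 0.461) in PRSS35, and the intervals overlapped. The bounds correspond to 4 fragments in EV (exact Poisson 95% interval 1.09 to 10.2) and 1 fragment in PRSS35 (0.0253 to 5.57). The ratio of PRSS35 to EV was 0.25 with an exact 95% interval from 0.00508 to 2.53, which covers counting error only. A difference in HULC was not detectable at this depth. At HULC 1 fragment was worth 0.152 FPKM in EV and 0.154 FPKM in PRSS35.

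**Figure D3:**
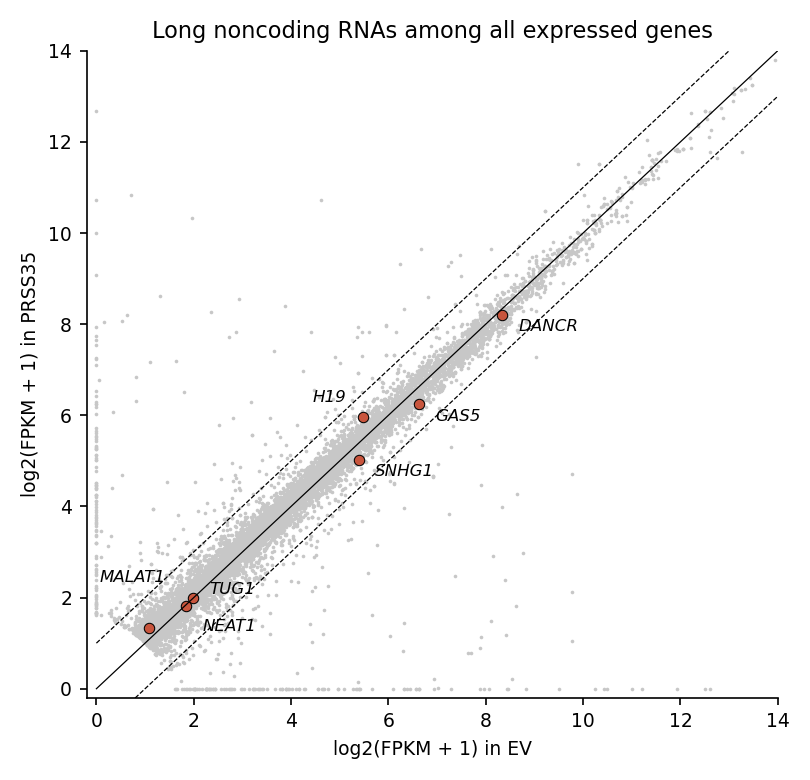
Log2(FPKM + 1) of each of 11118 expressed names in PRSS35 against EV (grey), with the 7 expressed long noncoding RNAs in red. The solid line marks equal levels and the dashed lines 2-fold. All 7 lie between the dashed lines, DANCR in the upper part of the cloud and MALAT1, TUG1 and NEAT1 near the lower end.

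The lists that follow hold genes tied to the 10 RNAs, with directions as deposited, which division by the sum over all loci would shift upward. Other long noncoding RNAs that host snoRNAs were read beside GAS5, SNHG1 and DANCR. Of 18 such hosts, 16 were expressed, none differed by 2-fold, 4 were higher and 3 lower in PRSS35 with the intervals apart, and the median log2 difference was 0.02. Over all expressed names 5.21% were past 2-fold, 25.2% were higher and 15.5% lower with the intervals apart, and the median was 0.06, and these shares are the background for each list below. The 3 with the highest level were SNHG7 (372.5 and 398.5 FPKM in EV and PRSS35), SNHG17 (307.9 and 314.0) and SNHG6 (182.1 and 212.3). SNHG12 had the largest difference, from 4.72 to 8.16 FPKM, a log2 difference of 0.68. SNHG15 (94.5 and 73.1 FPKM) and SNHG8 (81.4 and 66.1), the 2 lowest by log2 difference and chosen after their values were seen, had log2 differences of -0.37 and -0.30, and the row of SNHG8 was built by assembly in EV only. The third that was lower with separate intervals was SNHG3 (118.5 and 103.3 FPKM). The 4 that were higher with separate intervals were SNHG6, SNHG12, ZFAS1 (144.5 and 158.9 FPKM) and SNHG20 (17.9 and 21.4). In all, 11 of the 16 had a log2 difference above 0. The rows of SNHG7, SNHG12, SNHG20 and SNHG3 were joined with other gene names in at least 1 library. Each of these values is that of the whole row. SNHG4, also of this list, had the same values as MATR3 of the paraspeckle list below, 13.3 FPKM in EV and 13.5 in PRSS35.

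Of 10 factors of nonsense-mediated decay, which breaks down the RNA of GAS5 and of other snoRNA hosts, 9 were expressed. None differed by 2-fold, beside 5.21% of all expressed names, or had separate intervals, beside 25.2% higher and 15.5% lower, and the median log2 difference was 0.05. UPF3A had the highest log2 difference, 0.33, at 11.5 FPKM in EV and 14.8 in PRSS35. Its PRSS35 interval ran from 0 to 742 FPKM, too wide for separate intervals to be seen. UPF1, the helicase at the centre of the pathway, had 49.5 FPKM in EV and 46.1 in PRSS35 (a row assembled in PRSS35 only), SMG5 67.9 and 65.7, and SMG9 21.8 and 19.

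The genes of proteins that work with MALAT1 and NEAT1 were expressed as RNA, at low as well as high levels. All 13 paraspeckle protein genes were above 1 FPKM, none differed by 2-fold (5.21% of all expressed names), and the median log2 difference was 0.05. By separate intervals 2 were higher and 1 lower in PRSS35, beside 25.2% and 15.5% of all expressed names. NONO, with a row assembled in EV only, stood at 208.0 FPKM in EV and 215.1 in PRSS35, and RBM14 at 151.9 and 160.9. The row of RBM14 was joined with other gene names in at least 1 library. At the low end, SMARCA4 had 3.68 FPKM in EV and 3.69 in PRSS35. Of 10 genes for the ends of MALAT1 and NEAT1, mostly subunits of RNase P, all were expressed with a median log2 difference of 0.05. RPP25 (168.3 and 166.4 FPKM), ELAC2 (65.1 and 70.3) and POP5 (41.0 and 45.5) were the highest of these. RPP30, an RNase P subunit, was the 1 gene of this list past 2-fold, beside 5.21% of all expressed names, at 17.9 FPKM in EV and 6.58 in PRSS35.

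For the partners described for HOTAIR and TUG1, the genes of PRC2 and of the LSD1 complex, 9 of 10 were expressed and none differed by 2-fold, beside 5.21% of all expressed names, with a median log2 difference of 0.11. EZH2, the methyltransferase of PRC2, had 6.37 FPKM in EV and 7.04 in PRSS35 with overlapping intervals, and SUZ12, with a row assembled in PRSS35 only, had 2.39 and 2.66. AEBP2, an accessory subunit of PRC2, stood at 3.40 FPKM in EV and 1.74 in PRSS35, a log2 difference of -0.69. Its row was built by assembly in EV only, so its 2 values come from rows made in different ways.

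Of 21 names listed for other long noncoding RNAs described in liver cancer, 19 were found and 10 were expressed, with a median log2 difference of 0.12. The names not found, CYTOR and NORAD, stand for the same RNAs as LINC00152 and LINC00657, which were found. By separate intervals 3 were higher and 1 lower in PRSS35, near the 25.2% and 15.5% of all expressed names. UCA1 was the highest, at 312.1 FPKM in EV and 381.8 in PRSS35, where DANCR had 323.1 and 295.1. LINC00152 stood at 69.1 and 63.0 FPKM. TP53TG1 had 27.1 FPKM in EV and 40.0 in PRSS35, a log2 difference of 0.55, with a row assembled in PRSS35 only. DLEU2 was the 1 RNA past 2-fold, beside 5.21% of all expressed names, at 2.38 FPKM in EV and 0.662 in PRSS35.

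Of 19 genes that neighbour the 10 RNAs, 12 were expressed, with a median log2 difference of 0.03. Beside SNHG1, SLC3A2, the heavy chain of amino acid transporters, stood at 334.9 FPKM in EV and 286.8 in PRSS35, lower with the intervals apart, as was SNHG1. ZBTB37, beside GAS5, was below the filter at 0.110 and 0.0785 FPKM. SMTN, near TUG1, had 15.7 FPKM in PRSS35 while EV listed it at 0, so no fold is given.

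**Figure D4:**
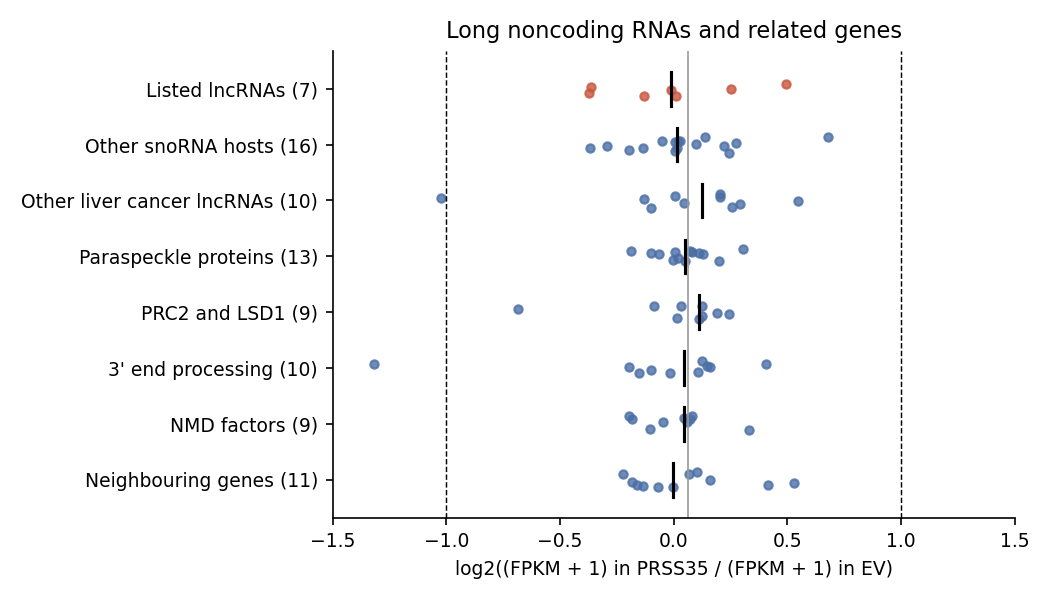
Log2 difference between PRSS35 and EV, with 1 FPKM added, for each expressed gene of the 10 listed long noncoding RNAs (7, red) and of 7 related lists (blue), with the number of genes plotted in brackets. Black bars mark medians, the grey line the median of all expressed names, dashed lines 2-fold, and the vertical scatter within a row has no meaning. SMTN, listed at 0 in EV, and the snoRNAs are left out, and the medians of all 8 rows lie within 0.15 of 0.

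The treatment of the values mattered most for direction. Under pseudocounts of 0.1 and 5 FPKM, upper quartile scaling and division by the sum over named loci, H19 and MALAT1 stayed above 0 and GAS5, SNHG1 and DANCR below, and division by the sum over all loci put all 7 above 0. MALAT1, the lowest of the 7, moved most with the pseudocount, from 0.41 with 0.1 FPKM to 0.09 with 5 FPKM.

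**Figure D5:**
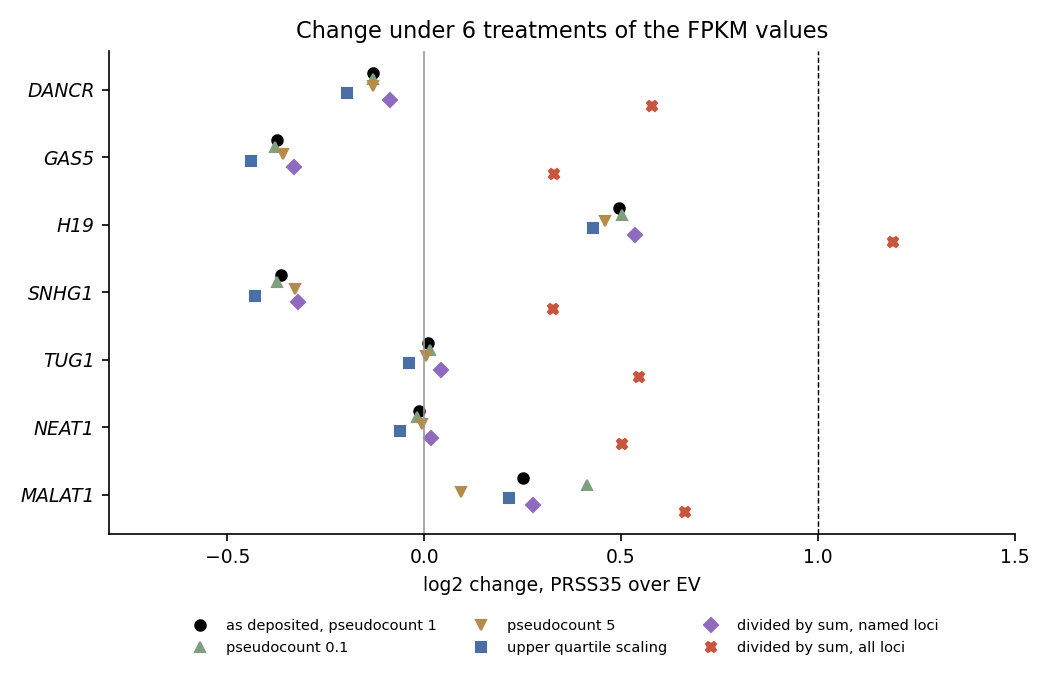
Log2 difference between PRSS35 and EV of the 7 expressed long noncoding RNAs under 6 treatments of the FPKM values. The grey line marks equal levels and the dashed line 2-fold. Division by the sum over all loci (crosses) shifts every RNA to the right, and H19, at 1.19, is then past 2-fold.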

How the data were processed

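The study sequenced 1 library from each of 2 PLC lines, carrying the empty vector (EV) or overexpressing PRSS35. Total RNA was extracted and libraries were made with a NEBNext Ultra kit that does not mark strand. Whether poly(A) RNA was selected from it is not given. Reads were mapped by the authors with TopHat2 2.1.0 on hg19, followed by Cufflinks; the submitters' processing notes also name Cuffdiff 2.2.1. The deposited values are FPKM per locus with lower and upper bounds. The annotation release and options are not given in the sources used here.

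The 10 RNAs and the related lists were chosen with earlier results of these data known. Loci were matched by gene name, rows of 1 name were summed, and a row joined with several names counted for each. Names with a mean of at least 1 FPKM were kept, differences were log2 ratios after adding 1 FPKM, and the threshold was 2-fold. Implied fragments were computed from each interval as (2 × FPKM / (upper bound − FPKM)) squared. With 1 library per group no test was run, and intervals cover error within a library only. From the related lists, genes were named at an absolute log2 difference of at least 0.58, among the 3 highest, or as partners of the 10 RNAs; others were chosen after their values were seen. Some genes that the rule names are not reported here. Starts in the tables count from 0 and were raised by 1. Gene models came from GENCODE v44lift37 on GRCh37, and microRNAs and promoters from RefSeq on GRCh38.p14. Alternatives were pseudocounts of 0.1 and 5 FPKM, other scalings, centring, other row and filter choices, and 1.5-fold. Division by the sum over named loci and the addition of unnamed loci were chosen after seeing the data. Tools were pandas 2.3.3 and numpy 2.4.6 under Python 3.11.15, with matplotlib 3.10.9 for plots and scipy 1.17.1 for exact intervals.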

Additional observations from a re-analysis of the deposited data

Results flagged for a closer look

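Unnamed loci, which entered the sum over all loci but no level of a named gene as deposited, held signal inside 2 of the 10 RNAs. In EV, a locus inside MEG3 at chr14:101311106-101311573 had 1.82 FPKM (interval 0.722 to 2.91), from 11 implied fragments, and no such locus was listed in PRSS35. In PRSS35, a locus inside TUG1 at chr22:31369589-31370484 had 0.566 FPKM (interval 0.225 to 0.907), also from 11 implied fragments, and no such locus was listed in EV. The difference between the libraries was not tested for either.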

How the results depend on the processing

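No paired analysis was possible because each group had 1 library, and for the same reason no replicate could be left out. Division by the FPKM total of all loci changed most: 1 long noncoding RNA (H19) passed 2-fold, the median log2 difference of the 7 was 0.55, GAS5 and SNHG1 each turned to 0.33, and 1453 of all names passed 2-fold, 87.6% of them higher in PRSS35 against 52.3% as deposited. By construction it follows the unequal sums of the 2 libraries. The count over all names was 354 with a pseudocount of 5 FPKM, 374 without joined rows, 371 at a mean of at least 5 FPKM and 1056 at 1.5-fold. At a mean of at least 5 FPKM the median of the 4 RNAs left was -0.25, since the 3 low ones dropped out. Adding unnamed loci put 1 RNA, MEG3, past 2-fold at -1.32 and moved TUG1 from 0.01 to 0.20. H19, MALAT1 and HULC kept their sign under every alternative run, and GAS5, SNHG1, DANCR, NEAT1, TUG1 and MEG3 changed sign under at least 1; DANCR was at 0.58 and NEAT1 at 0.50 with the total of all loci. Without the sum over all loci, the log2 difference ran from -0.44 to -0.33 for GAS5, -0.43 to -0.32 for SNHG1 and 0.43 to 0.54 for H19. The intervals of HULC and MEG3 reached 0, and depth limited HULC.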

Other observations

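Further unnamed loci lay within 5000 bases of 2 of the RNAs. Before the start of NEAT1, EV had a locus at chr11:65186442-65187880 with 3.09 FPKM (interval 2.51 to 3.67), above the 2.57 FPKM of NEAT1 itself, and PRSS35 had one at chr11:65186563-65188103 with 1.31 FPKM (interval 0.944 to 1.67) and one at chr11:65188293-65189222 with 0.78 FPKM (interval 0.390 to 1.17). Beyond the 3′ end of the GAS5 row, within the longer GENCODE gene, EV had a locus at chr1:173827909-173829545 with 0.911 FPKM (interval 0.619 to 1.20) and one at chr1:173831566-173832021 with 1.76 FPKM (interval 0.624 to 2.90), and none was listed there in PRSS35. All 7 of the RNAs built by assembly were so in both libraries, while MALAT1, HULC and HOTAIR kept their annotated rows in both.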
